A study of Mus musculus with 40 samples.

Results

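RNA-seq was used to profile lung tissue from mice treated topically with N-nitroso-tris-chloroethylurea (NTCU), a carcinogen that produces squamous lesions of the airway and lung squamous cell carcinoma in sensitive strains. The 10 genes described here were chosen by name as the KEAP1 and NRF2 oxidative stress pathway: Nfe2l2, Keap1, Nqo1, Gclc, Gclm, Hmox1, Txnrd1, Srxn1, Slc7a11 and Gsr. All 10 were found among the 37310 genes of the count table, and all 10 passed the gene filter that left 15630 genes for testing. Of 40 samples, the 25 with a passing quality label were used. The normal group (n = 7) came from mice given only the acetone vehicle and consisted of 4 SWR/J samples (1 laser capture microdissected, or LCM, and 3 whole lung sections) and 3 A/J samples (2 LCM and 1 whole lung). The mild dysplasia group (n = 5) held SWR/J samples only (3 LCM and 2 whole lung), each after a total of 15 umol NTCU. The high-grade group (n = 13) held 8 SWR/J samples (4 LCM and 4 whole lung) and 5 A/J samples (3 LCM and 2 whole lung). In this group the SWR/J samples had 25 to 50 umol NTCU and the A/J samples 14 to 20 umol. The high-grade group was made of moderate to severe dysplasia (n = 9), severe dysplasia (n = 2), 1 carcinoma in situ and 1 squamous cell carcinoma (SCC) tumor. Every normal sample had 0 umol NTCU and every lesion sample had NTCU, so grade and exposure cannot be told apart.

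NRF2, the protein encoded by Nfe2l2, is a transcription factor that activates genes of antioxidant defence and detoxification. In unstressed cells KEAP1 holds NRF2 in the cytoplasm and presents it to a CUL3 ubiquitin ligase for degradation, and modification of KEAP1 by oxidants or electrophiles lets NRF2 accumulate and bind antioxidant response elements together with small MAF proteins. Because this control acts on the NRF2 protein, the Nfe2l2 transcript itself is not a measure of NRF2 activity, and the transcripts of target genes are often read in its place. In lung squamous cell carcinoma of humans, mutations of NFE2L2 and KEAP1 are known to be recurrent.

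The targets fall into several jobs. Gclc and Gclm encode the catalytic and modifier subunits of glutamate-cysteine ligase, the first step of glutathione synthesis, and Slc7a11 encodes the cystine importer that feeds it. Gsr encodes glutathione reductase, which regenerates reduced glutathione. Txnrd1 encodes cytosolic thioredoxin reductase and Srxn1 encodes sulfiredoxin, which repairs over-oxidized peroxiredoxins. Nqo1 encodes a quinone reductase, and Hmox1 encodes the heme-degrading enzyme heme oxygenase-1.

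Promoter stretches are shown because several of the genes moved together across samples; a match describes the letters and is not a measured site. The core of the antioxidant response element was searched as TGACNNNGC on both strands, from 250 bases before to 50 bases after the transcription start, in RefSeq promoters of the GRCm38.p6 build (a later build than the mm9 of the count table). Its first letters are shared with the AP-1 site TGACTCA. Promoters of 7 of the 10 genes were in the table, and those of Gclc, Hmox1 and Gsr were not analysed here. The core was present for Nfe2l2, Gclm, Txnrd1 (at 1 of its 3 starts) and Srxn1, so for 4 of 7 genes, and it was present in 12.4% of all 32851 promoters and for 14% of genes. No match lay in these windows of Keap1, Nqo1 and Slc7a11. The core is in capitals, with 10 bases on each side, and all 4 stretches are read from the minus strand. Each distance is counted to the base of the core that comes first in the direction of the gene. For a core on the opposite strand that base is the last letter printed in capitals.
Nfe2l2, chr2:75704885-75704913, core beginning 240 bases before the start and on the strand of the gene: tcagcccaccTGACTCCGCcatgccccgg
Gclm, chr3:122245413-122245441, core beginning 134 bases before the start and on the opposite strand: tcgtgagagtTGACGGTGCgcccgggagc
Txnrd1, chr10:82859104-82859132, core beginning 92 bases before the start and on the opposite strand: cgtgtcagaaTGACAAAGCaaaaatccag
Srxn1, chr2:152105542-152105570, core beginning 29 bases after the start and on the opposite strand: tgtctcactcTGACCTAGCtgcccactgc

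Library depth, RNA integrity and cell content differed between samples. The expected counts of a sample summed to between 2667387 and 16534728 (median 9075416), and the transcript integrity number (TIN, a measure of how evenly transcripts are covered, where low values mean degraded RNA) had sample medians of 21.7 to 75.1. Markers of squamous epithelium (Krt13, Krt6a, Sprr1b and Sprr3) summed to 25900 CPM (counts scaled to the total of the library) in normal sample 71, the highest of all 25 samples, although its label is normal, and to 1.6 to 1960 CPM in the other 6 normal samples. Its median TIN was 28.9. Markers of T cells (Cd3e, Cd3g, Cd2 and Lck) summed to 941 to 1800 CPM in 4 normal samples (2B, 70, 72 and 81) and to 1390 CPM in high-grade sample 40, whereas the other 20 samples had 6.34 to 805 CPM. Mild dysplasia sample 7c is described as normal in its own label, and normal sample SM1 as mild dysplasia, so 2 of 25 samples carry conflicting labels. Leaving out both samples of conflicting labels changed no call among the 10 genes in any fitted comparison.

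Expression was measured as log2 CPM after TMM normalization, and every gene was detected in every sample, with the lowest expected count, 21, for Nqo1. Per length, on the log2 RPKM scale, Nfe2l2 had the highest mean level of the 10 genes (5.37 ± 0.69, SD, n = 25), followed by Gclc (4.84 ± 1.31), Gsr (4.37 ± 0.80) and Hmox1 (4.36 ± 1.04). Slc7a11 had the lowest (2.89 ± 0.66), below Keap1 (3.30 ± 0.28). Neighbours in this order differed by less than the wider of their SDs. Spread separated the genes more than level did: across the 25 samples the SD of log2 CPM was 1.45 for Nqo1 and 1.31 for Gclc but 0.28 for Keap1. On the mm9 build, Nfe2l2 lies at chr2:75513570-75542698 on the minus strand, Keap1 at chr9:21034174-21043776 on the minus strand, Nqo1 at chr8:109912125-109927106 on the minus strand, and Slc7a11 at chr3:50168858-50247535 on the minus strand. On the plus strand lie Gclc at chr9:77602342-77642292, Gclm at chr3:121948475-121972902, Hmox1 at chr8:77617490-77624495, Txnrd1 at chr10:82296696-82360469, Srxn1 at chr2:151931252-151937112 and Gsr at chr8:34762995-34808635. Values count reads over exons of each gene.

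**Figure D1:**
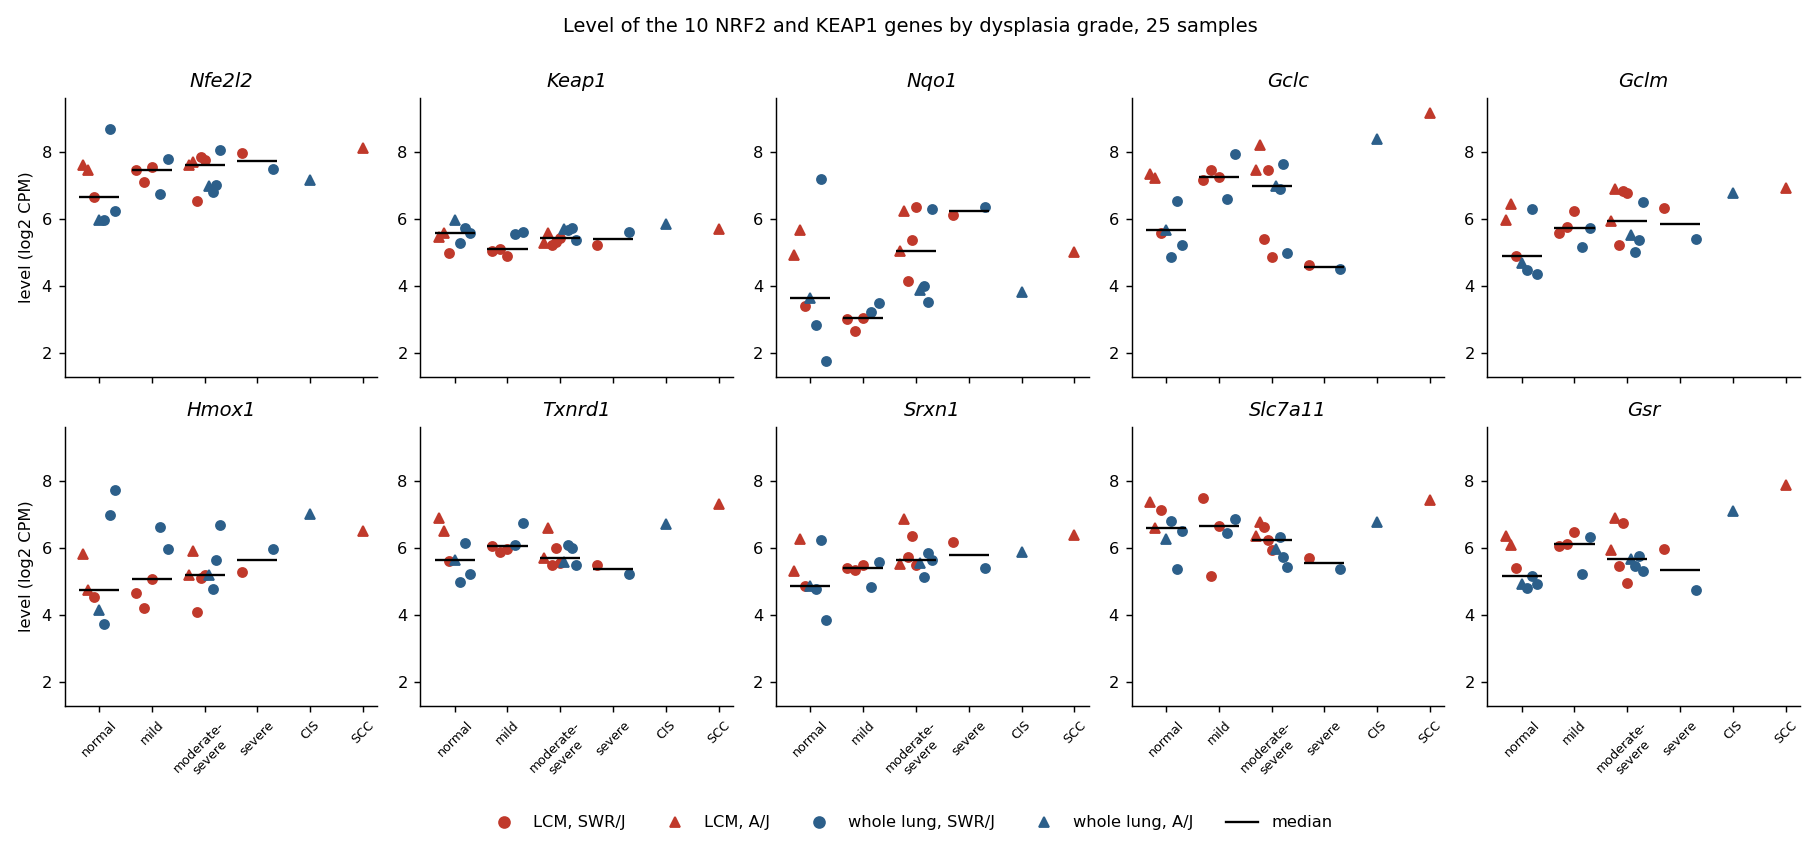
Level of the 10 genes in log2 CPM (y axis) by dysplasia grade (x axis), with 1 point per sample, colour for LCM or whole lung, shape for strain and a black line for the median of each grade. Nqo1 lies between 2.67 and 3.49 in all 5 mild dysplasia samples, while the normal samples spread from 1.77 to 7.18, and Gclc is highest in the SCC tumor at 9.15.

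The first comparison asked whether the pathway differed between high-grade and normal samples, each a mix of LCM tissue and whole lung sections. None of the 10 genes passed the test in high-grade against normal samples (edgeR quasi-likelihood test with Benjamini-Hochberg adjustment over 15630 genes, with strain, sample type and median TIN in the model), where 0.0192% of all genes did. At an unadjusted p under 0.05, 1 of the 10 genes (Gsr) passed, against 9.14% of all genes, and no gene of the 10 was called by DESeq2. Of the 10 fitted log2 fold changes, 8 were above 0 and their median was 0.11, against -0.01 over all genes.

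Genes of glutathione synthesis and recycling had the largest fitted differences in high-grade samples, and all had wide errors. Gclc ranged from 4.50 to 9.15 log2 CPM (median 6.99) in the high-grade samples and from 4.86 to 7.33 (median 5.66) in the normal samples. The high-grade range enclosed the normal range, and the fitted log2 fold change was 0.96 ± 0.47 (SE, 95% interval -0.01 to 1.92, adjusted p = 0.551). Gsr ranged from 4.74 to 7.89 log2 CPM (median 5.76) in high-grade and from 4.81 to 6.35 (median 5.18) in normal samples, with a fitted log2 fold change of 0.76 ± 0.29 (95% interval 0.15 to 1.37, adjusted p = 0.477). Gclm ranged from 5.0 to 6.92 (median 6.31) in high-grade and from 4.36 to 6.44 (median 4.89) in normal samples, and its fitted log2 fold change was 0.53 ± 0.30 (adjusted p = 0.602). The groups overlapped for all 3 genes, and for Gclm the normal samples reached below the lowest high-grade sample.

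The regulators and the quinone and heme enzymes had fitted differences near 0. Nfe2l2 was 7.46 ± 0.52 log2 CPM among high-grade samples (SD, n = 13) and 6.94 ± 1.02 among normal samples (n = 7), and its fitted log2 fold change was 0.06 ± 0.30 (95% interval -0.56 to 0.69, adjusted p = 0.956). The normal range of 5.97 to 8.67 enclosed the whole high-grade range of 6.55 to 8.11. Keap1 was 5.51 ± 0.21 log2 CPM among high-grade samples and 5.52 ± 0.31 among normal ones, with a fitted log2 fold change of 0.05 ± 0.10 (95% interval -0.17 to 0.26). Nqo1 had the widest normal group, from 1.77 in sample 72 to 7.18 in sample 71, which enclosed the high-grade range of 3.52 to 6.37 and gave a fitted log2 fold change of -0.02 ± 0.53 (95% interval -1.12 to 1.09). Srxn1 (0.40 ± 0.25), Txnrd1 (0.15 ± 0.24), Hmox1 (0.01 ± 0.50) and Slc7a11 (-0.19 ± 0.26) also missed the test on the log2 fold change scale.

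Normal sample 71 weighed on these values. It had the highest Nfe2l2 (8.67 log2 CPM) and the highest Nqo1 (7.18 log2 CPM) of the 25 samples. Without it the fitted log2 fold change in high-grade against normal samples became 1.76 ± 0.49 for Gclc (adjusted p = 0.228), 0.93 ± 0.60 for Nqo1 (adjusted p = 0.470) and 0.66 for Nfe2l2 (adjusted p = 0.328). None of the 10 genes passed the test in that fit either.

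Mild dysplasia was compared with normal samples in the same fit, where 12.4% of all genes passed the test and none of the 10 did. At an unadjusted p under 0.05, 2 of the 10 genes passed (Gclc and Gsr), against 32.7% of all genes. Gclc was 7.15, 7.46 and 7.23 log2 CPM in the 3 LCM samples (5, 7 and 7c) and 6.60 and 7.94 in the 2 whole lung samples (73 and 74). Samples 7 and 74 were above the highest normal sample (7.33), the other 3 lay among the 3 highest normal samples (6.52 to 7.33), and the other 4 normal samples were between 4.86 and 5.66. The fitted log2 fold change of Gclc was 1.64 ± 0.63 (95% interval 0.35 to 2.94, adjusted p = 0.0782), and that of Gsr was 0.92 ± 0.37 (95% interval 0.16 to 1.69, adjusted p = 0.0903). Without the 2 samples of conflicting labels the values were 1.67 ± 0.70 for Gclc (adjusted p = 0.117) and 0.86 for Gsr (adjusted p = 0.161). Against the 4 SWR/J normal samples alone, Gclc was higher in all 5 mild samples without overlap, as were 5.13% of all genes.

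Gclc in mild dysplasia sat at the threshold of the test and crossed it under several settings. DESeq2 called it (log2 fold change 1.64, adjusted p = 0.0332), and so did the edgeR fit without normal sample 71 (2.16 ± 0.56, adjusted p = 0.0193) and without moderate to severe sample 41 (1.85, adjusted p = 0.0486). T cell markers moved with this comparison: 4 of 4 were lower in mild dysplasia than in normal samples (median log2 fold change -5.24), and they summed to 13.2 to 103 CPM in the mild samples against 68.5 to 1800 CPM in the normal samples. Fibroblast markers were higher for 2 of 4 genes (median log2 fold change 1.46), and alveolar type 1 markers had positive values for 4 of 4 (median 1.64), of which 0 passed by edgeR and 1 had an unadjusted p under 0.05. Without the 5 samples over 900 CPM of T cell markers the log2 fold change of Gclc was 0.69 ± 0.83 (adjusted p = 0.851) and that of Gsr was 0.73 (adjusted p = 0.767). The part of these cells in these values was not tested further, and in bulk tissue fewer cells of a type and less RNA per cell cannot be told apart.

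Nqo1 in mild dysplasia was low and varied little between samples. It was 3.02, 2.67 and 3.04 log2 CPM in the LCM samples (5, 7 and 7c) and 3.24 and 3.49 in the whole lung samples (73 and 74), a mean of 3.09 ± 0.30 (SD, n = 5). All 13 high-grade samples were above the highest mild sample, a separation that 0.313% of all genes had in that direction, although the lowest of them (3.52, sample 76) lay only just above it. In a test of high-grade against mild samples, added after this was seen, the log2 fold change of Nqo1 was 0.77 ± 0.97 (95% interval -1.24 to 2.78, adjusted p = 0.663, edgeR). Without median TIN as a covariate it was 2.55 ± 0.77 (adjusted p = 0.0314), in a fit where 15.0% of all genes passed. None of the 10 genes passed in that comparison with the covariates, by either edgeR or DESeq2, and 0 of the 10 had an unadjusted p under 0.05, where 0.326% of all genes passed and 22.5% had an unadjusted p under 0.05. Against normal samples the fitted log2 fold change was -0.79 ± 0.95 (95% interval -2.76 to 1.19, adjusted p = 0.590), and without the 5 samples rich in T cell markers it was -3.16 ± 0.91 (adjusted p = 0.604). The fitted sign turned within whole lung samples alone, where Nqo1 was 2.98 ± 0.84 in mild against normal (edgeR adjusted p = 0.148) and -3.31 ± 0.89 in high-grade against mild samples (adjusted p = 0.367). The -3.31 ran against the measured levels, as every whole lung high-grade sample (3.52 to 6.36) was above both mild ones (3.24 and 3.49). Those mild samples had a median TIN of 75.1 and 63.4, beyond the range of the other whole lung samples (23.7 to 60.7), and the fit corrects for TIN. The other genes did not pass the test of mild against normal samples either, with log2 fold changes of 0.53 ± 0.44 for Nfe2l2, 0.67 ± 0.41 for Gclm, 0.51 ± 0.33 for Txnrd1 and -0.10 ± 0.14 for Keap1.

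Grade taken as a rank, from normal (0) to carcinoma (4), gave the smallest p of any grade comparison to Gsr. The slope of Gsr was 0.34 ± 0.09 log2 per step (95% interval 0.15 to 0.54, unadjusted p = 0.00138), but the adjusted p of the edgeR test was 0.112, so it was not called, and 0.262% of all genes were. At an unadjusted p under 0.05 there were 2 of the 10 genes, against 13.7% of all genes. DESeq2 called it (0.34 per step, adjusted p = 0.0324). Gclm (0.22 per step, adjusted p = 0.352) and Gclc (0.34 per step, adjusted p = 0.426) followed. Within the SWR/J samples alone the slope of Gclc was -0.03 per step, so its positive slope rested on the A/J samples, which include both carcinomas.

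The 2 carcinomas, each the only sample of its grade, both from A/J mice after 20 umol NTCU, had the highest Gclc and Gsr. Gclc was 9.15 log2 CPM in the SCC tumor (sample 49, LCM) and 8.38 in the carcinoma in situ (sample 84, whole lung), and Gsr was 7.89 and 7.10. Both genes were higher in these 2 samples than in each of the other 23, which was also the case for 4.08% of all genes. Hmox1 was 6.49 and 7.02 log2 CPM, above the 6 other A/J samples, as were Gclc and Gsr and 13.5% of all genes. Txnrd1, Slc7a11 and Gclm were 7.31, 7.42 and 6.92 in the SCC tumor, which ranked 1, 2 and 1 of the 25 samples. In the carcinoma in situ they were 6.72, 6.79 and 6.77, ranks 4, 8 and 4. Nqo1 did not follow, at 5.01 and 3.82 log2 CPM, values within the range of the other A/J samples (3.63 to 6.24). With 1 sample per grade these differences have no replicate check.

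At the opposite end, the 2 severe dysplasia samples, both SWR/J, had the lowest Gclc of the high-grade group. Gclc was 4.64 log2 CPM in sample 42 (LCM) and 4.50 in sample 79 (whole lung), while Nqo1 was 6.11 and 6.36. Both samples had low RNA integrity, with a median TIN of 21.7 and 33.9. High Nqo1 with low Gclc was also seen in moderate to severe samples 45 (6.36 and 4.86, TIN 39.1) and 78 (6.30 and 4.97, TIN 23.7).

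**Figure D2:**
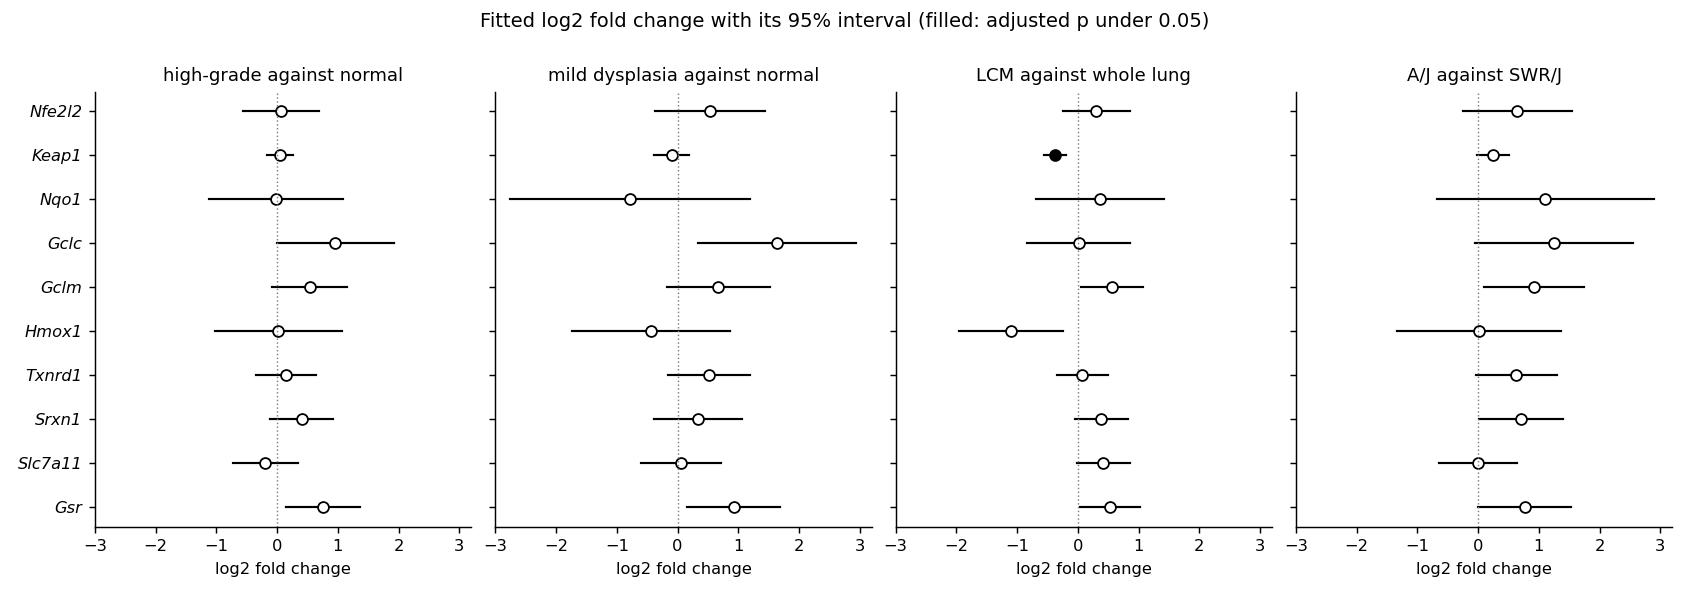
Fitted log2 fold change (x axis) of each of the 10 genes (y axis) in each comparison, with lines for the 95% interval and filled points for an adjusted p under 0.05. The filled point is Keap1 in LCM against whole lung samples, at -0.38, and the other intervals are wide, as for Gclc in mild dysplasia (0.35 to 2.94).

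Source gave 1 call among the 10 genes: Keap1, the inhibitor of NRF2, was lower in LCM than in whole lung samples. Keap1 ranged from 4.89 to 5.69 log2 CPM (median 5.28, mean 5.30 ± 0.25, SD, n = 13) in LCM samples and from 5.30 to 5.97 (median 5.65, mean 5.64 ± 0.18, n = 12) in whole lung samples. The ranges overlapped between 5.30 and 5.69, and the fitted log2 fold change was -0.38 ± 0.09 (95% interval -0.55 to -0.20, adjusted p = 0.00796, edgeR quasi-likelihood test with Benjamini-Hochberg adjustment). In this comparison 14.6% of all genes passed, and 8.93% of all genes were lower in LCM samples, so 1 gene of 10 is close to the share of all genes. Within the SWR/J samples alone the log2 fold change was -0.41 (adjusted p = 0.0671). The libraries are not stranded, and 510 of the 4470 exonic bases of Keap1 overlap the antisense gene Gm16754, which holds 1698 counts against 10585 for Keap1 over the 25 samples, so reads from the overlap could belong to either.

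Hmox1 had a larger but less certain difference in the same direction. It ranged from 4.09 to 6.49 log2 CPM (median 5.11) in LCM and from 3.74 to 7.74 (median 5.98) in whole lung samples, and the fitted log2 fold change was -1.10 ± 0.42 (95% interval -1.97 to -0.24, adjusted p = 0.0769). DESeq2 called it (-1.08, adjusted p = 0.0317), as did the edgeR fits without normal sample 70 (-1.13, adjusted p = 0.0490) and without normal sample 81 (-1.26, adjusted p = 0.0417). Macrophage markers, of cells known to express Hmox1, were lower in LCM samples for 2 of 5 genes (median log2 fold change -0.71) and summed to 68.0 to 242 CPM in LCM against 43.9 to 1700 CPM in whole lung samples. Endothelial markers were lower for 4 of 4 genes (median -1.98) and club cell markers higher for 2 of 4. The part of these cells in the Keap1 and Hmox1 values was not tested.

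At an unadjusted p under 0.05 there were 4 of the 10 genes (Keap1, Hmox1, Gclm and Gsr), against 30.3% of all genes, and the remaining targets did not pass the adjusted test. Gclm (0.56 ± 0.25, adjusted p = 0.127), Gsr (0.54 ± 0.24, adjusted p = 0.130) and Slc7a11 (0.42 ± 0.21, adjusted p = 0.178) had positive fitted log2 fold changes, and 8 of the 10 genes did (median 0.34 against -0.03 over all genes). Without normal sample 71 Gclm was called (0.71, adjusted p = 0.0418). Gclm shares 296 of its 5137 exonic bases with the antisense gene Gm17494, which held 152513 counts against 14146 for Gclm, so part of the Gclm count may come from that gene. The high-grade effect did not pass the test of a difference between LCM and whole lung samples for any of the 10 genes. The largest interaction was for Nqo1 (1.27 ± 0.89, 95% interval -0.58 to 3.13, adjusted p = 0.788). No gene of 15630 passed that test in edgeR, with 1117 (7.15%) at an unadjusted p under 0.05 and 2 called by DESeq2.

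Strain was compared over the grades, and A/J samples had the higher fitted level for 9 of the 10 genes (median log2 fold change 0.68, against 0.02 over all genes), but none passed the test, which 0.992% of all genes did, and at an unadjusted p under 0.05 there were 3 of the 10 genes against 17.5% of all genes. Gclc ranged from 5.66 to 9.15 log2 CPM (median 7.39) in A/J (n = 8) and from 4.50 to 7.94 (median 6.53) in SWR/J samples (n = 17), a fitted log2 fold change of 1.25 ± 0.63 (95% interval -0.05 to 2.55, adjusted p = 0.305). Gclm (0.92 ± 0.40, adjusted p = 0.237), Gsr (0.77 ± 0.37, adjusted p = 0.285), Srxn1 (0.70 ± 0.33, adjusted p = 0.278) and Nqo1 (1.11 ± 0.86, adjusted p = 0.509) also had positive values on that scale. The ranges of the strains overlapped for all 10 genes, and 0.345% of all genes did not overlap. Among high-grade samples A/J mice had 14 to 20 umol NTCU and SWR/J mice 25 to 50 umol, and dose was not in the model. Strain and dose therefore cannot be told apart in that group. RNA integrity differed between strains, with a median TIN of 53.7 to 69.6 in A/J and 21.7 to 75.1 in SWR/J samples, and in a fit without median TIN Gclc (1.62), Txnrd1 (0.78) and Gsr (0.93) passed, as did 16.0% of all genes. In that fit Nqo1 turned to -0.69 and Nfe2l2 to -0.18. Both also turned negative with median TIN kept but without the samples rich in T cell markers. The direction of these 2 genes between strains therefore depended on the covariates and samples used.

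Within A/J mice the source separated Nfe2l2, Nqo1 and Keap1. Nfe2l2 was 7.47 to 8.11 log2 CPM in the 5 LCM and 5.97 to 7.15 in the 3 whole lung samples, and Nqo1 was 4.93 to 6.24 and 3.63 to 3.90. Keap1 went the other way, from 5.28 to 5.689 in LCM and from 5.693 to 5.97 in whole lung samples, so its ranges nearly touched. Such separation without overlap was present for 3.72% of all genes towards higher and 4.94% towards lower values in LCM. The high-grade effect did not pass the test of a difference between strains for any of the 10 genes, where the largest value was for Hmox1 (1.48 ± 0.94, 95% interval -0.46 to 3.43, adjusted p = 0.97). No gene of 15630 passed that test in edgeR, with 678 (4.34%) at an unadjusted p under 0.05 and 5 called by DESeq2. The NTCU dose of the high-grade samples also differed between the strains, so this test cannot tell strain from dose.

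Whether the genes moved together across samples was asked within LCM (n = 13) and whole lung samples (n = 12) separately, over the 45 pairs of genes. Pearson correlations were positive for 40 of 45 pairs in LCM samples (median r 0.55) and for 36 of 45 in whole lung samples (median r 0.35), while 50.5% and 49.9% of pairs of all genes were positive. An adjusted p under 0.05 over the 45 pairs (two-sided permutation test, 100000 resamples) was reached by 16 pairs in LCM and 8 in whole lung samples, and 5 pairs reached it in both. After adjustment for median TIN and strain within each source the counts were 4 and 13. The 5 pairs joined Gclc, Gsr and Txnrd1 with each other, and Gclm with Nfe2l2 and Srxn1. Pairs across these sets were not apart from them, as the r of Nfe2l2 and Txnrd1 over the 25 samples after adjustment was 0.71 and that of Gclm and Gsr was 0.65, and no difference between the sets was tested.

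Gclc was close to both Gsr and Txnrd1. With Gsr its r was 0.85 in LCM (permutation test, adjusted p = 0.0045, Spearman rho 0.83) and 0.88 in whole lung samples (adjusted p = 0.00045, rho 0.92), and without the 2 samples farthest from the median Gclc it was 0.91 and 0.85. Gclc and Txnrd1 had r of 0.80 in LCM (permutation test, adjusted p = 0.0126, rho 0.74) and 0.90 in whole lung samples (adjusted p = 0.0045, rho 0.82), and 0.78 and 0.85 without the 2 farthest samples. Txnrd1 and Gsr had r of 0.81 (permutation test, adjusted p = 0.0096, rho 0.80) and 0.82 (adjusted p = 0.00562, rho 0.71), and 0.72 and 0.62 without the 2 farthest samples. Samples high in 1 of these 3 genes tended to be high in the others in both sources, with exceptions. Normal sample 71 (whole lung) ranked 7 of the 25 samples for Txnrd1 (6.16 log2 CPM) but 20 for Gsr (5.18). The SCC tumor was highest for all 3 among LCM samples, and among whole lung samples the carcinoma in situ was highest for Gclc and Gsr and mild dysplasia sample 74 for Txnrd1.

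Nfe2l2 was closest to Gclm among the 10 genes. Their r was 0.87 in LCM (permutation test, adjusted p = 0.0045, rho 0.85) and 0.81 in whole lung samples (adjusted p = 0.0113, rho 0.87), and 0.70 and 0.73 without the 2 samples farthest from the median Nfe2l2. Gclm and Srxn1 had r of 0.77 (permutation test, adjusted p = 0.0182, rho 0.78) and 0.83 (adjusted p = 0.00562, rho 0.88), and 0.77 and 0.90 without the 2 farthest. The calls were lost without the 5 samples rich in T cell markers: 0 pairs passed in LCM (n = 11, lowest adjusted p = 0.0759, permutation test, 15 pairs at an unadjusted p under 0.05) and 0 in whole lung samples (n = 9, lowest adjusted p = 0.0962, exact permutation test, 13 pairs at an unadjusted p under 0.05). The r values of the 5 pairs stayed positive there, from 0.70 to 0.81 in LCM and from 0.61 to 0.86 in whole lung samples.

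Nqo1, a target commonly used to read NRF2 activity, had positive r with Gclm and Srxn1 and values near 0 or below with Gclc and Gsr. Its r with Gclc was -0.12 in LCM and -0.20 in whole lung samples, and with Gsr it was 0.07 and -0.12. With Gclm it was 0.69 in LCM (permutation test, adjusted p = 0.0434, rho 0.69) and 0.64 in whole lung samples (adjusted p = 0.106). With Srxn1 it was 0.65 in LCM (permutation test, adjusted p = 0.045, rho 0.64) and 0.69 in whole lung samples (adjusted p = 0.0666). With Nfe2l2 it reached r = 0.81 in whole lung samples (permutation test, adjusted p = 0.0113, rho 0.69), which fell to 0.56 without the 2 samples farthest from the median Nfe2l2 and to 0.56 (adjusted p = 0.251, permutation test) without samples of median TIN under 30, so the call was lost while r stayed positive. In LCM samples the r of Nqo1 and Nfe2l2 was 0.58 (permutation test, adjusted p = 0.0883, rho 0.67), and over the 25 samples after adjustment it was 0.65. Slc7a11 ran opposite to Nqo1 in whole lung samples (r = -0.81, permutation test, adjusted p = 0.0113, rho -0.78), but not in LCM samples (r = -0.13). After adjustment for median TIN, strain and sample type the r of Nqo1 and Slc7a11 over the 25 samples was -0.205. Nfe2l2 and Keap1 had r of 0.51 in LCM and -0.04 in whole lung samples, and neither passed. In LCM samples Keap1 passed with Nqo1 (r = 0.75, permutation test, adjusted p = 0.0259). It also passed there with Gclm, Hmox1, Txnrd1 and Srxn1 (r of 0.65 to 0.67, adjusted p = 0.045 for each), but not with Gclc, Gsr and Slc7a11. In whole lung samples Keap1 passed with none of the targets (r of -0.01 to 0.50).

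**Figure D3:**
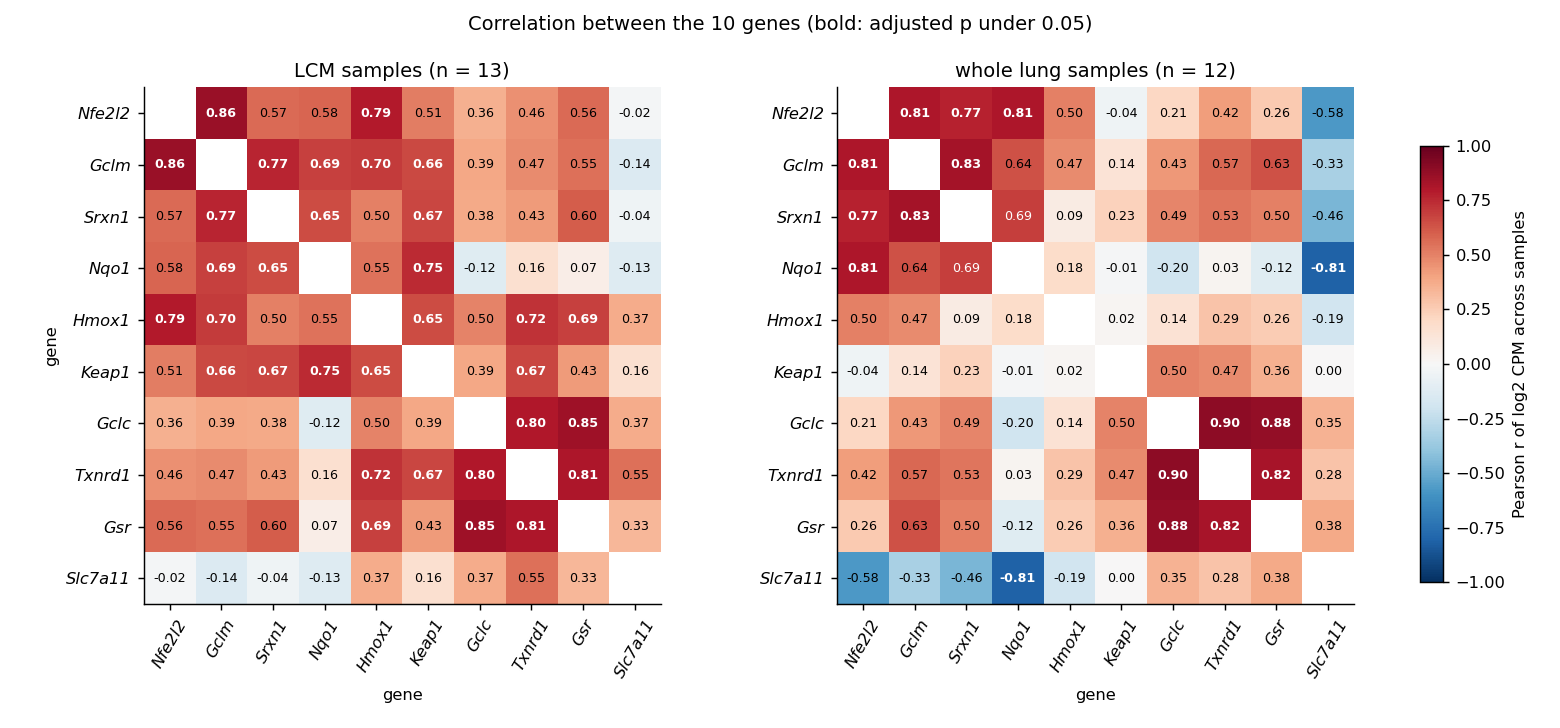
Pearson r of log2 CPM (colour and printed values) between each pair of the 10 genes, in the 13 LCM samples (left) and the 12 whole lung samples (right), with bold values where the permutation p adjusted over 45 pairs was under 0.05. Gclc, Txnrd1 and Gsr form a block with r of at least 0.80 in both panels, and Slc7a11 against Nqo1 is -0.81 on the right.

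RNA integrity moved with several of the genes. The 6 samples with a median TIN under 40 had Nqo1 from 3.03 to 7.18 log2 CPM (median 6.33), against 1.77 to 6.24 (median 3.82) in the other 19 samples. Gclc went the other way, with a median of 4.91 against 7.23 log2 CPM. In whole lung samples r with median TIN was -0.82 for Nqo1, -0.60 for Nfe2l2 and 0.79 for Slc7a11 (n = 12, as a description), and in LCM samples it was -0.02 for Nqo1, 0.65 for Gclc and 0.68 for Txnrd1 (n = 13). In the edgeR fit, per 10 units of median TIN, Nqo1 was -0.64 ± 0.25, Nfe2l2 -0.32 ± 0.12 and Slc7a11 0.24 ± 0.10 on the log2 scale. None of the 10 genes passed the adjusted test (adjusted p = 0.106 for Nqo1), which 7.31% of all genes did, and 4 of the 10 had an unadjusted p under 0.05 against 25.7% of all genes. Without the 6 samples of low integrity the values turned to 0.26 for Nqo1 and 0.22 for Nfe2l2. Cell content and integrity moved together, since the 5 samples highest in squamous markers (71, 78, 45, 79 and 42, at 6380 to 25900 CPM) all had a median TIN under 40.

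**Figure D4:**
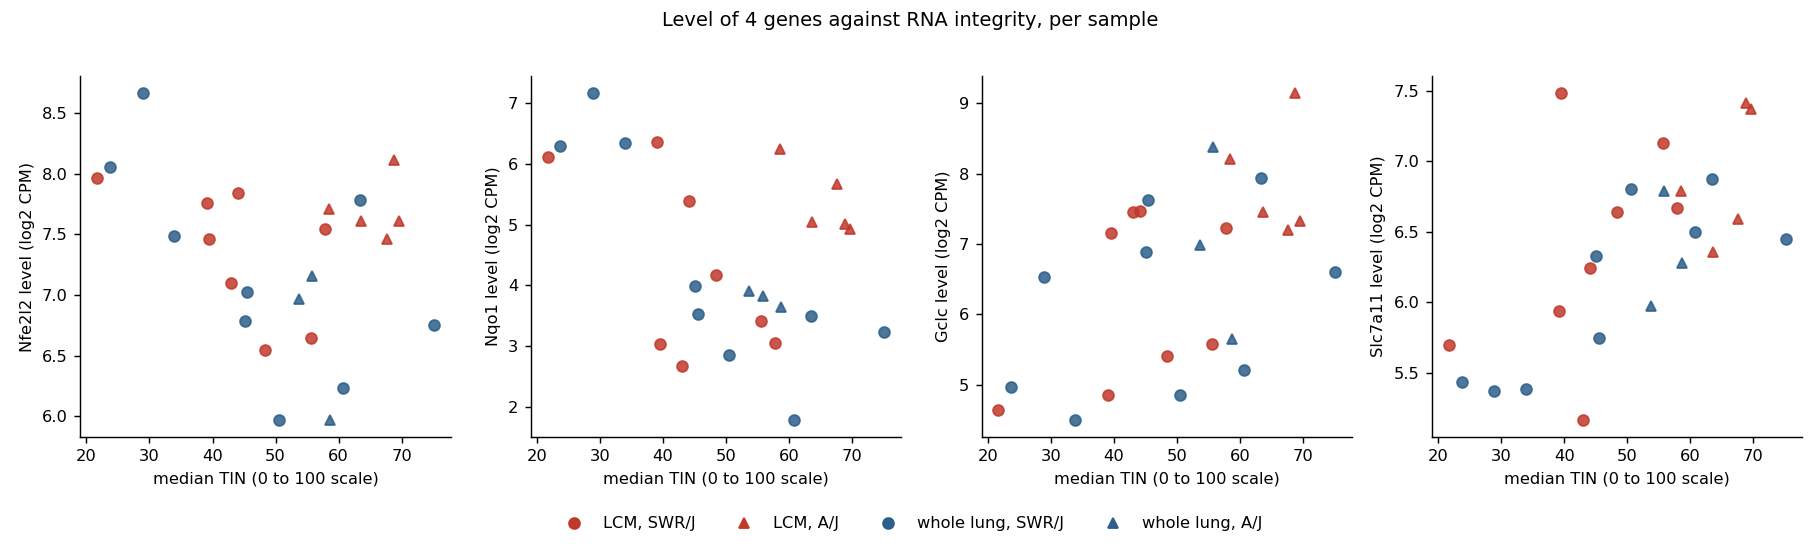
Level of Nfe2l2, Nqo1, Gclc and Slc7a11 in log2 CPM (y axis) against the median TIN of the sample (x axis), with colour for LCM or whole lung and shape for strain. The whole lung samples with a TIN under 40 have Nqo1 between 6.30 and 7.18 and lie above the other 9 whole lung samples, a separation shared by 7.54% of all genes.

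Cell type markers fixed by name were set beside the 10 genes. Each list was set against the level of each gene, as 300 relations over both sources. The r and rho given here were not computed from the summed CPM of a list, so the sums do not reproduce them. Of the 300 relations, 8 reached an adjusted p under 0.05, all in whole lung samples (n = 12). The strongest was T cell markers with Gclm (r = -0.91, permutation test, adjusted p = 0.009, rho -0.91, and r = -0.85 without the 2 farthest samples). Squamous markers with Nqo1 gave r = 0.82 (permutation test, adjusted p = 0.0467, rho 0.73), and airway basal markers with Nqo1 also gave 0.82 (adjusted p = 0.0467, rho 0.80). Whole lung samples with higher squamous markers had higher Nqo1. Airway basal markers also passed with Srxn1 (r = 0.83, permutation test, adjusted p = 0.0467) and Gclm (r = 0.81, adjusted p = 0.0476). In LCM samples squamous markers and Nqo1 had r = 0.70 (permutation test, adjusted p = 0.107).

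Levels of Gclc and Txnrd1 went with markers of other cells. Alveolar type 1 markers (Ager, Rtkn2, Aqp5 and Hopx) had r = 0.84 with Gclc (permutation test, adjusted p = 0.0467, rho 0.92) and 0.83 with Txnrd1 (adjusted p = 0.0467) in whole lung samples, and endothelial markers had r = 0.82 with Gclc (adjusted p = 0.0467, rho 0.91). Macrophage markers had r = 0.80 with Hmox1 in whole lung samples (permutation test, adjusted p = 0.0606), which did not pass, and 0.51 without the 2 farthest samples. The part of these cells in the levels of the 10 genes was not tested.

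**Figure D5:**
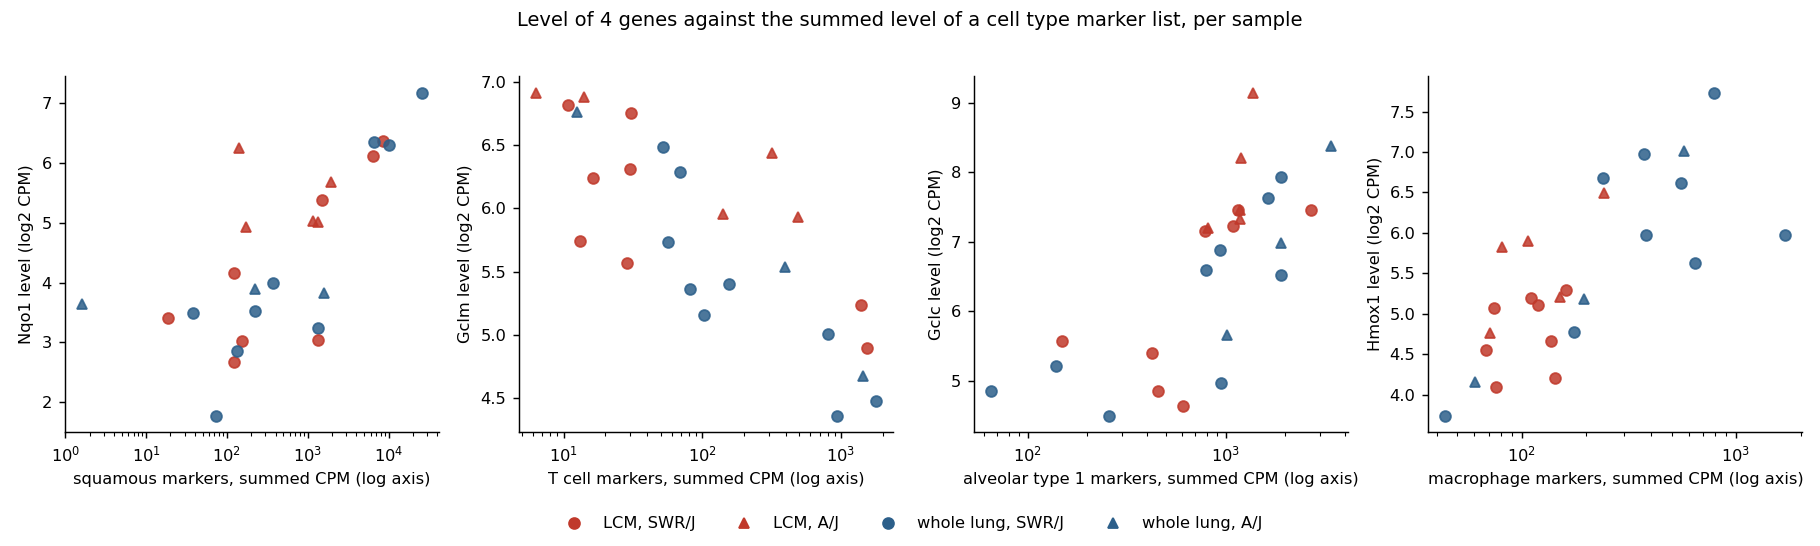
Level of Nqo1, Gclm, Gclc and Hmox1 in log2 CPM (y axes) against the summed CPM of squamous, T cell, alveolar type 1 and macrophage markers (x axes, log scale), with 1 point per sample. Normal sample 71 is at the upper right of the squamous panel, at 25900 CPM and 7.18 log2 CPM of Nqo1. The r and rho of the text were not computed from these sums.

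The normal samples themselves divided with T cell content, in a split chosen after the values were seen and given without a test. The split cannot be told apart from source and strain: 3 of the 4 samples rich in T cell markers are whole lung and 3 are SWR/J, while 2 of the other 3 are A/J LCM samples. Those other 3 are samples 46, 71 and SM1. Sample 71 had squamous markers of 25900 CPM and a median TIN of 28.9, and SM1 is described as mild dysplasia in its own label. In the 4 normal samples over 900 CPM of T cell markers Nfe2l2 was 5.97 to 6.64 log2 CPM, and in the other 3 normal samples it was 7.47 to 8.67. Gclc was 4.86 to 5.66 and 6.52 to 7.33, and Gclm was 4.36 to 4.89 and 5.96 to 6.44. Nqo1 was 1.77 to 3.63 and 4.93 to 7.18. Txnrd1 (5.0 to 5.63 and 6.16 to 6.88) and Srxn1 (3.86 to 4.88 and 5.31 to 6.27) also did not overlap, so 6 of the 10 genes were lower in the samples rich in T cell markers, against 8.9% of all genes in that direction. Several of these genes moved together across samples, so they are not separate observations. Keap1, Hmox1, Slc7a11 and Gsr overlapped.

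Beyond the 10 genes, 40 other genes of the pathway were followed, all of which were tested. In LCM against whole lung samples 6 of 40 were higher and 2 lower, beside 5.65% and 8.93% of all genes, and by the edgeR test 0 of 40 passed in the high-grade, mild, strain and rank comparisons, with 4, 13, 10 and 7 at an unadjusted p under 0.05, beside 9.14%, 32.7%, 17.5% and 13.7% of all genes. Genes of glutathione use and export were higher in LCM for 3 of 8, led by the glutathione transferase gene Gstm1 (1.63 ± 0.34, edgeR adjusted p = 0.00468), and genes of carbonyl and xenobiotic detoxification for 3 of 6, led by the carbonyl reductase gene Cbr1 (0.76 ± 0.18, adjusted p = 0.00851). Regulators were lower for 2 of 11: Nfe2l1 (-0.56 ± 0.13, adjusted p = 0.0102), which encodes the NRF2-related factor NRF1, and the small MAF gene Mafk (-0.70 ± 0.18, adjusted p = 0.0129). None of 4 thioredoxin and peroxide genes, 6 NADPH supply genes and 5 iron and heme genes passed. The median log2 fold change of the 40 genes in LCM was 0.36, beside 0.34 for the 10 and -0.03 over all genes. Club cell markers, for 2 of 4 genes, were higher in LCM in the same comparison, and the part of these cells was not tested.

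Genes most like Nfe2l2 across the 25 samples, after adjustment for median TIN, strain and sample type, were not among the targets. Of 14209 genes, Mfsd6 (r = 0.95), Rab38 (0.94), Sh3bgrl2 (0.94), Sypl (0.94) and P4hb (0.93) were closest to Nfe2l2, and Gclm (0.81) was at rank 141. The genes closest to Nqo1 were Gsta2 (r = 0.92), a glutathione transferase gene, then Slc27a4 (0.89), Smpd1 (0.87), Yars (0.86) and Gm3776 (0.85), while Nfe2l2 (0.65) was at rank 336. Gsta2 and Gm3776 belong to a gene family of near-identical copies, so their counts are uncertain. These r values are a description over the same 25 samples, and no p is given.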

How the data were processed

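RNA of whole lung sections and LCM tissue was sequenced by the authors as single-end 50-nucleotide reads from unstranded TruSeq libraries, trimmed with Trimmomatic, aligned to mm9 with STAR and counted with RSEM on Ensembl genes. The authors deposited expected counts, not normalized, of which 88.8% were whole, and these were rounded here. Each of 25 samples was treated as independent, since the labels do not tie samples to animals, so p-values measure the spread between samples. Counts were normalized by TMM and tested with the edgeR 4.0.16 robust quasi-likelihood test in R 4.3.3. Genes needed an interquartile range above 0 and a sum above 1 of log2 CPM (prior count 2). Covariates were median TIN, strain and sample type, and Benjamini-Hochberg adjustment ran over 15630 genes with a threshold of 0.05. RPKM used the summed exon length of the NCBIM37 annotation. Correlations used two-sided permutation tests of 100000 resamples in scipy 1.17.1, or every ordering where n was under 10. DESeq2 1.42.0, other filters and scalings, covariates and left-out samples were alternatives. All 10 genes are named. From 40 further pathway genes at most 3 per comparison with the smallest adjusted p are named (Mafk was added after its values were seen), and the 5 genes most like Nfe2l2 and Nqo1, among genes whose mean reached 1 log2 CPM. The 10 genes and the lists were chosen with earlier results of these data known. The scripts for the tests were tested on simulated data.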

Additional observations from a re-analysis of the deposited data

Results flagged for a closer look

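Txnrd1 in mild dysplasia sample 74 (whole lung, SWR/J) was 6.74 log2 CPM, the highest of the 5 mild samples, and stood apart from the next value by 0.751 of the range of the group, above the limit of 0.710 for 5 samples. Groups of values of the 10 genes were tested in this way 30 times, and 1 stood apart, where chance alone gives about 1 in 20.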

How the results depend on the processing

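No paired analysis was possible because the replicate numbers were given in accession order and the labels carry none. The alternatives without samples of median TIN under 40 or of T cell markers over 900 CPM, and the comparison of high-grade with mild samples, were chosen after seeing the data. Of 3450 recomputed log2 fold changes of the 10 genes, 294 changed sign, 28 of them for values that had exceeded their standard error, 27 were called only in an alternative and 1 was no longer called. The cause was not tested in any of these.

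In mild dysplasia against normal 1 gene (Gclc) was called under DESeq2, without median TIN (1.82, adjusted p = 0.0438) and without samples of median TIN under 30 (2.02, adjusted p = 0.0265), and 0 to 1 without 1 sample at a time. In LCM against whole lung 2 genes were called under DESeq2 (Hmox1 with Keap1), without TIN under 30 (Gclm, 0.83), without TIN under 40 (Nqo1, 1.11) and without T cell markers over 900 CPM (Hmox1, -1.04), 0 in SWR/J samples only, and 1 to 2 without 1 sample at a time. Between strains 3 were called without median TIN. Along the rank of grade 1 gene (Gsr) was called under DESeq2 and without TIN under 40 (0.45, adjusted p = 0.0314). In high-grade against normal, strain, rank and both interactions, 0 were called without 1 sample at a time. The pairs correlated in LCM numbered 6 without TMM, 8 without TIN under 30, 4 after adjustment for median TIN and strain, and 0 without T cell samples. In whole lung samples they numbered 5, 4, 13 and 0, and 14 without TIN under 40.

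The sign changes of the 28 values that had exceeded their standard error were as follows, on the log2 fold change scale. The other sign changes, such as Hmox1 and Nqo1 in high-grade against normal, were of values below their standard error. Without the T cell samples, they turned for Srxn1 in high-grade against normal (-0.059), for Nfe2l2 (-0.58), Gclm (-0.25) and Txnrd1 (-0.19) in mild against normal, for Nfe2l2 (-0.022) and Nqo1 (-0.58) in A/J, for Keap1 in the strain interaction (0.20), and for Nfe2l2 in high-grade against mild (0.092). Without median TIN, they turned for Nfe2l2 in mild against normal (-0.009), in A/J (-0.18) and in high-grade against mild (0.23), and for Nqo1 in A/J (-0.69). In SWR/J samples only, they turned for Nfe2l2 in LCM (-0.10) and for Gclc (-0.027) and Txnrd1 (-0.003) by rank. Without strain and sample type, they turned in high-grade against mild for Nfe2l2 (0.024) and Txnrd1 (0.014). The interaction with LCM turned for Nfe2l2 (-0.26), Hmox1 (-0.049) and Srxn1 (-0.089) without TIN under 30, for Nfe2l2 (-0.29) and Hmox1 (-0.26) without TIN under 40, and for Nfe2l2 (-0.125) without normal sample 71 (range without 1 sample at a time -0.125 to 0.891). Per 10 units of TIN, they turned for Nfe2l2 (0.062) and Gclm (0.037) without TIN under 30, and for Nfe2l2 (0.22), Nqo1 (0.26) and Gclm (0.01) without TIN under 40. Among the sign changes of values below their standard error, in whole lung samples only, Nqo1 was 2.98 in mild against normal (edgeR adjusted p = 0.148). The fitted value of Nqo1 there was -3.31 in high-grade against mild (edgeR adjusted p = 0.367). Every whole lung high-grade sample nonetheless had higher Nqo1 than both mild ones.

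Genes called over the whole table moved widely. Without 1 sample at a time they numbered 0 to 6 in high-grade against normal (3 with all samples), 643 to 3118 in mild (1945), 1385 to 2555 by source (2279), 97 to 402 by strain (155), 1 to 153 by rank (41) and 0 to 1148 in high-grade against mild (51). Under the other alternatives they ranged from 0 to 95, 0 to 3653, 577 to 3348, 11 to 2493, 0 to 538 and 0 to 2339. The share higher by source was 883 of 2279 in edgeR and 1583 of 3348 in DESeq2, and by strain it was 52 of 155 and 527 of 961. The SWR/J samples alone hold no strain comparison, and single sources hold no source comparison. Depth of 2667387 counts in the smallest library limits low genes such as Nqo1, with 21 counts at its lowest.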
